A study of Saccharomyces cerevisiae with 22 samples.

Results

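The genes described here encode the glyoxylate cycle, the 2 enzymes specific to gluconeogenesis, the carrier that joins the cycle to the mitochondrion, and the transcription factors that activate them. They are ICL1, MLS1, MDH2, IDP2, PCK1, FBP1, SFC1, CAT8, SIP4 and ADR1, that is 10 of the 5449 genes measured. They were taken by symbol, as a list chosen with earlier results of these data known. Each had a probe set that matches 1 transcript only. Total RNA of Saccharomyces cerevisiae CEN.PK113-1A, a prototrophic haploid laboratory strain of mating type alpha, was measured on 22 arrays. The cells grew in glucose-limited chemostats at 1 dilution rate, temperature and pH, and the inlet gas held 0% (4 arrays), 0.5% (4 arrays), 1.0% (6 arrays), 2.8% (4 arrays) or 20.9% oxygen (4 arrays). All cultures received ergosterol and Tween, a source of oleic acid, since cells without oxygen cannot make sterols and unsaturated fatty acids. The 2.8 and 20.9% cultures were also given a small amount of growing cells when the feed began, to prevent oscillations, so that this addition cannot be told apart from their oxygen level. The arrays at 0.5 and at 2.8% oxygen came from 2 cultivations each, and up to 4 of the arrays at 1.0% oxygen came from 1 cultivation. The labels do not say which arrays share one, so that p-values partly measure the spread within a chemostat. Replicates 2 and 4 at 2.8% oxygen were centrifuged directly, without cold buffer, unlike the other samples.

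In the glyoxylate cycle, 2 molecules of acetyl-CoA are turned into a C4 acid by isocitrate lyase and malate synthase, past the decarboxylating steps of the citric acid cycle. Oxaloacetate formed from this acid can then be converted to phosphoenolpyruvate and, by gluconeogenesis, to hexose phosphate. Yeast uses these reactions on ethanol and acetate, and their genes are known for strong repression by glucose, which is relieved through the Snf1 kinase and the activators Cat8, Sip4 and Adr1. The question posed by the oxygen series was how their transcripts change in cells that are all limited by glucose but can respire to different extents.

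Transcripts of all the genes except PCK1 were higher at 20.9% than at 0% oxygen, by 1.61-fold (CAT8) to 68.2-fold (SFC1). The rise was not made in the same place along the series. By value, SFC1, MLS1, FBP1, CAT8 and ADR1 changed most between 0.5% and 0% oxygen, ICL1, MDH2 and SIP4 changed most between 20.9% and 2.8% oxygen, and IDP2 changed in 3 separate steps. PCK1 followed another course, with its lowest means at 0.5 and 1.0% oxygen and its highest at 2.8% oxygen, which was not called different from 0%. In the limma F test over the 5 levels, 10 of 10 genes were called at an adjusted p under 0.01, a threshold passed by 60.0% of all genes.

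**Figure D1:**
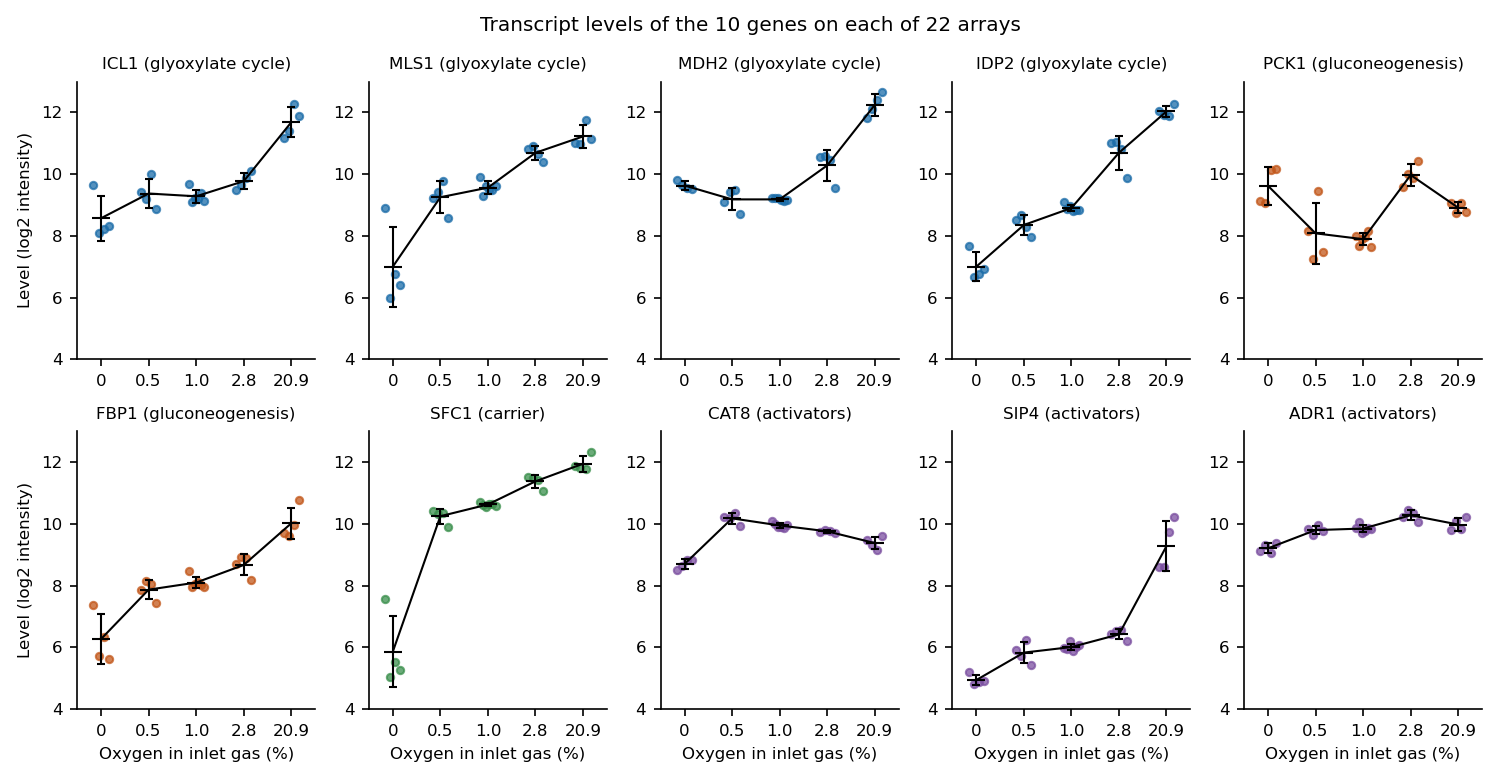
Transcript level (log2 intensity, y axis) of each gene on each of the 22 arrays (coloured points) by oxygen in the inlet gas (x axis, 5 levels at equal spacing); black marks and bars are the mean and SD of a level. SFC1 averaged 10.25 at 0.5% and 5.86 at 0% oxygen, SIP4 averaged 9.28 at 20.9% and 6.42 at 2.8% oxygen, and PCK1 was lowest at 1.0% with 7.89.

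Markers of cells without oxygen (DAN1, TIR1, ANB1, AAC3 and COX5B) were higher on every array at 0% than on every other array in 5 of 5 cases, and mean levels were 11.01 to 13.73 for 4 alpha-cell genes and 5.73 to 7.79 for 5 a-cell genes. Single arrays nevertheless deviated in the pathway itself, most widely replicate 1 at 0% oxygen. On it, ICL1, MLS1, IDP2, FBP1 and SFC1 lay 0.67 to 1.89 above the mean of the level on the log2 scale, although 95% of all genes lay within 0.32 of it and DAN1 and ANB1 were at 13.49 and 11.64, within the range of the other arrays without oxygen or at its top. Replicate 4 at 2.8% oxygen had an SD over all genes of 0.322 around the mean of its level, against 0.142 to 0.164 for the other arrays there. It held the lowest values of MLS1, MDH2, IDP2, FBP1, SFC1, CAT8, SIP4 and ADR1 at that level and the highest of ICL1 and PCK1. Replicate 3 at 0.5% oxygen had ICL1, MLS1, MDH2, PCK1 and SIP4 above the mean of its level by 0.32 to 1.36, where 95% of all genes lay within 0.22. Replicate 4 at 20.9% oxygen had the widest deviations of all (SD over genes 0.344, against 0.181 to 0.224 for the other arrays there) and the lowest array weight (0.128), and held the highest values of MDH2, IDP2, FBP1, SFC1, CAT8, SIP4 and ADR1 at that level. Without it MDH2 at 2.8% against 0% (adjusted p = 0.0082) and ADR1 at 2.8% against 1.0% (0.43, adjusted p = 0.0070, and 0.49, adjusted p = 0.0073, without replicate 4 at 2.8%) and at 20.9% against 2.8% oxygen (-0.37, adjusted p = 0.0076) were called as well, and PCK1 at 20.9% against 1.0% oxygen no longer was (1.07, adjusted p = 0.014). That PCK1 call was lost with any of 12 single arrays left out. Leaving out replicate 4 at 2.8% oxygen overlaps with leaving out the 2 directly centrifuged samples, of which it is one. The part of these arrays in the results was tested only by leaving them out, and the changes this made to calls are given with each gene.

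**Figure D2:**
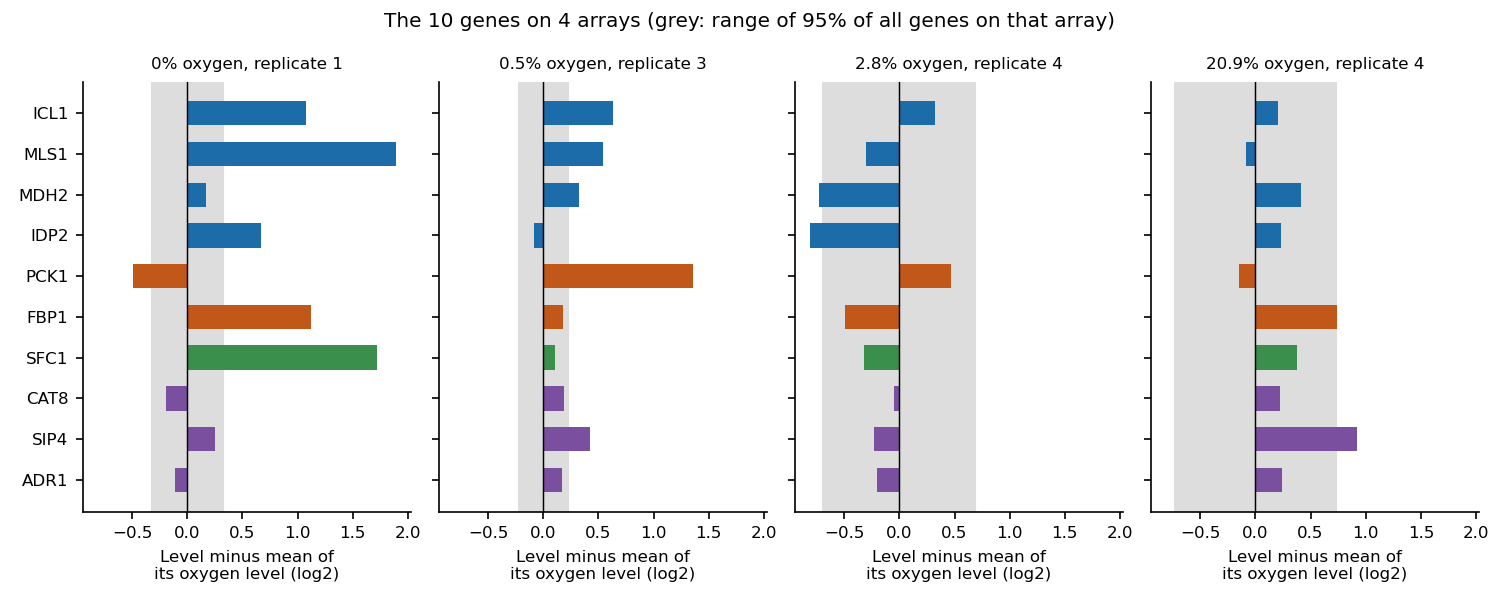
Level of each gene minus the mean of its oxygen level (log2, x axis) on 4 arrays, 1 per panel; bars are the genes, coloured by role as glyoxylate cycle (blue), gluconeogenesis (orange), carrier (green) and activators (purple), and the grey band holds 95% of all genes of that array. On replicate 1 at 0% oxygen 5 genes lie above the band and PCK1 lies below it, and on replicate 3 at 0.5% oxygen PCK1 lies 1.36 above its mean.

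ICL1 encodes isocitrate lyase, the first of the 2 reactions particular to the cycle. Its log2 levels were 9.65, 8.08, 8.21 and 8.33 at 0% oxygen, and 9.41, 9.20, 9.99 and 8.87 at 0.5% oxygen. They had a lowest value of 9.08, a median of 9.21 and a highest of 9.67 at 1.0% oxygen, and were 9.50, 9.65, 9.86 and 10.09 at 2.8% oxygen. At 20.9% oxygen they reached 11.18, 11.38, 12.27 and 11.87, and no array of another level overlapped these. At 0% oxygen, replicate 1 lay among the oxygen-limited cultures and the other 3 arrays lay below all of them. Between 20.9% and 0% oxygen ICL1 was 8.62-fold higher (log2 change 3.11 ± 0.29, SE; limma adjusted p = 1.1e-08). Between 20.9% and 2.8% oxygen it was 3.74-fold higher (adjusted p = 1.8e-05), which made up 61.2% of the whole change. The difference between 0.5% and 0% oxygen, 0.80 ± 0.29, was not called (adjusted p = 0.034), but without replicate 1 at 0% oxygen it was 1.16 and was called (adjusted p = 7.9e-04), as was that between 1.0% and 0% oxygen (1.08, adjusted p = 6.8e-04). ICL1 was called higher at 2.8% than at 0% oxygen (1.21 ± 0.29, adjusted p = 0.0024). This call was lost without the 2 directly centrifuged samples (1.11, adjusted p = 0.026) and without replicate 2 or 3 at 0% oxygen (adjusted p = 0.012 and 0.011).

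Malate synthase, which condenses glyoxylate with acetyl-CoA and completes the bypass, is encoded by MLS1. Log2 levels of MLS1 were 8.89, 5.98, 6.75 and 6.39 at 0% oxygen and 9.24, 9.41, 9.79 and 8.57 at 0.5% oxygen. They were 9.30, 9.53 and 9.90 (lowest, median and highest) at 1.0% oxygen, then 10.80, 10.90, 10.66 and 10.38 at 2.8% oxygen and 11.02, 10.97, 11.76 and 11.14 at 20.9% oxygen. All arrays at 2.8% oxygen lay above those at 0.5 and 1.0%, and the only overlaps between levels were those of 0.5% with 1.0% and, through replicate 1, with 0% oxygen. MLS1 was 18.6-fold higher at 20.9% than at 0% oxygen (4.22 ± 0.40, adjusted p = 1.5e-08), and 53.4% of this change lay between 0.5% and 0% oxygen (4.76-fold, adjusted p = 1.3e-04). Without replicate 1 at 0% oxygen these changes were 4.85 and 2.88 (adjusted p = 1.2e-12 and 6.8e-09). MLS1 at 2.8% against 1.0% oxygen (1.13, adjusted p = 0.10) and at 2.8% against 0.5% oxygen (1.43, adjusted p = 0.021) was not called, but was without that array, at the same values (adjusted p = 0.0017 and 2.4e-04). The last interval gave 0.54 ± 0.40 and was not called (adjusted p = 0.27, 95% interval -0.30 to 1.37).

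The cytosolic malate dehydrogenase gene MDH2 supplies oxaloacetate for gluconeogenesis, and its enzyme is degraded when glucose returns. Log2 levels were 9.80, 9.64, 9.56 and 9.51 at 0% oxygen, and 9.11, 9.41, 9.50 and 8.71 at 0.5% oxygen. At 1.0% oxygen they lay between 9.12 and 9.23 with a median of 9.19. They were 10.54, 10.58, 10.45 and 9.55 at 2.8% oxygen and 11.82, 12.11, 12.40 and 12.65 at 20.9% oxygen. MDH2 was thus lower on every array at 0.5 and 1.0% oxygen than on any array at 0%, although neither difference was called (both -0.44, adjusted p = 0.083 at 0.5% and 0.056 at 1.0% oxygen). It was 2.14-fold higher at 2.8% than at 1.0% oxygen (1.10 ± 0.18, adjusted p = 6.6e-04) and 3.89-fold higher at 20.9% than at 2.8% oxygen (1.96 ± 0.20, adjusted p = 1.2e-07). The difference of 0.65 between 2.8% and 0% oxygen was not called (adjusted p = 0.013). Without replicate 4 at 2.8% oxygen it was 0.90 and was called (adjusted p = 1.8e-04). The call at 2.8% against 1.0% oxygen was lost with the replicate numbers as a block (1.06, adjusted p = 0.045). With 2 samples each at 0.5 and 2.8% oxygen, as the median of 36 choices, that call was also lost (adjusted p = 0.014).

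IDP2, the cytosolic NADP-dependent isocitrate dehydrogenase that draws on the same isocitrate and yields NADPH and 2-oxoglutarate, showed the most even gradient. Its log2 levels were 7.67, 6.66, 6.77 and 6.91 at 0% oxygen, 8.50, 8.67, 8.27 and 7.95 at 0.5% oxygen, and between 8.81 and 9.11 with a median of 8.85 at 1.0% oxygen. They were 11.00, 11.04, 10.82 and 9.88 at 2.8% oxygen and 12.04, 11.93, 11.87 and 12.26 at 20.9% oxygen. No 2 levels overlapped. IDP2 was 32.6-fold higher at 20.9% than at 0% oxygen (5.03 ± 0.22, adjusted p = 6.9e-14), 2.55-fold higher at 0.5% than at 0% oxygen, 3.45-fold higher at 2.8% than at 1.0% oxygen and 2.53-fold higher at 20.9% than at 2.8% oxygen. All 3 of these steps were called. The step between 1.0% and 0.5% oxygen, 0.55 ± 0.20, was not (adjusted p = 0.25).

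PCK1 and FBP1 encode the 2 enzymes that bypass the irreversible reactions of glycolysis, phosphoenolpyruvate carboxykinase and fructose-1,6-bisphosphatase, and their transcripts did not follow the same course. PCK1 log2 levels were 9.14, 9.06, 10.14 and 10.15 at 0% oxygen and 8.14, 7.26, 9.44 and 7.47 at 0.5% oxygen. At 1.0% oxygen they lay between 7.65 and 8.16 with a median of 7.93, and they were 9.57, 10.01, 9.86 and 10.44 at 2.8% and 9.07, 8.75, 9.07 and 8.76 at 20.9% oxygen. Every array at 1.0% oxygen lay below every array at 0, 2.8 and 20.9%, and every array at 20.9% lay below every array at 2.8% oxygen. PCK1 was lower at 0.5% than at 0% oxygen by 2.91-fold (-1.54 ± 0.34, adjusted p = 0.0011) and lower at 1.0% than at 0% oxygen by 3.32-fold (adjusted p = 1.2e-04). It was 4.23-fold higher at 2.8% than at 1.0% oxygen (2.08 ± 0.31, adjusted p = 2.3e-04). This call and that at 2.8% against 0.5% oxygen were lost without the 2 directly centrifuged samples (1.82, adjusted p = 0.017, and 1.64, adjusted p = 0.025). With the replicate numbers as a block, that at 2.8% against 1.0% oxygen was lost (2.17, adjusted p = 0.011). The call at 0.5% against 0% oxygen was lost in a fit of only those 2 levels (adjusted p = 0.022). With 2 samples each at 0.5 and 2.8% oxygen, as the median of 36 choices, it was lost too (adjusted p = 0.012).

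In the order of its levels, from lowest to highest, PCK1 ran 1.0, 0.5, 20.9, 0 and 2.8% oxygen. Of the neighbours in this order, none was called different. The difference between 20.9% and 0.5% oxygen was 0.83 (adjusted p = 0.048) and that between 20.9% and 0% oxygen was -0.71 (adjusted p = 0.075, 95% interval -1.42 to 0). That between 2.8% and 0% oxygen was 0.35 (adjusted p = 0.46, 95% interval -0.36 to 1.06). The difference between 20.9% and 2.8% oxygen, which are not neighbours in this order, was -1.06 and was not called either (adjusted p = 0.013). Replicate 3 at 0.5% oxygen, at 9.44, widened the spread of this gene in the whole fit. Without it, PCK1 was called higher at 20.9% than at 0.5% oxygen (1.28, adjusted p = 5.3e-04) and lower at 20.9% than at 2.8% oxygen (-1.06, adjusted p = 0.0012). With all arrays kept, PCK1 was called higher at 20.9% than at 1.0% oxygen (1.02 ± 0.31, adjusted p = 0.0086). This call was lost with any of 12 single arrays left out.

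FBP1 log2 levels were 7.38, 5.72, 6.35 and 5.61 at 0% oxygen, 7.86, 8.14, 8.05 and 7.43 at 0.5% oxygen, and between 7.95 and 8.47 with a median of 8.04 at 1.0% oxygen. They were 8.71, 8.93, 8.88 and 8.18 at 2.8% oxygen and 9.72, 9.62, 9.98 and 10.76 at 20.9% oxygen. The arrays at 0% lay below all others, replicate 1 included, and those at 20.9% above all others. FBP1 was 13.5-fold higher at 20.9% than at 0% oxygen (3.76 ± 0.30, adjusted p = 8.3e-10). It was 3.04-fold higher at 0.5% than at 0% oxygen (adjusted p = 2.1e-04) and 2.54-fold higher at 20.9% than at 2.8% oxygen (adjusted p = 8.0e-04). The last of these was not called without the 2 directly centrifuged samples (1.23, adjusted p = 0.011). Relative to PCK1 on the same array, FBP1 was higher at 20.9% than at 0% oxygen by 4.47 ± 0.66 on the log2 scale and higher at 20.9% than at 2.8% oxygen by 2.41 ± 0.44.

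SFC1, which encodes the mitochondrial carrier that exchanges cytosolic succinate for fumarate and so delivers the succinate of the cycle to the mitochondrion, had the largest change of the 10 genes. Its log2 levels were 7.57, 5.04, 5.54 and 5.28 at 0% oxygen, and 10.43, 10.31, 10.35 and 9.89 at 0.5% oxygen. They lay between 10.56 and 10.71 with a median of 10.63 at 1.0% oxygen, and were 11.52, 11.50, 11.42 and 11.06 at 2.8% and 11.87, 11.81, 11.77 and 12.33 at 20.9% oxygen. As with IDP2, no 2 levels overlapped. SFC1 was 68.2-fold higher at 20.9% than at 0% oxygen (6.09 ± 0.34, adjusted p = 2.4e-12), and the step between 0.5% and 0% oxygen, 21.0-fold (4.39 ± 0.34, adjusted p = 9.3e-10), made up 72.1% of it. The later steps were 0.38, 0.75 and 0.57, and none was called. Without replicate 1 at 0% oxygen the spread of SFC1 was smaller and the differences between 2.8% and 1.0% (adjusted p = 8.5e-04) and between 20.9% and 2.8% oxygen (adjusted p = 0.0017) were called at the same values, as was that between 2.8% and 0.5% oxygen (1.13, adjusted p = 1.2e-05), while that between 20.9% and 0% oxygen was 6.66.

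Among the activators, CAT8 and ADR1 differed between 20.9% and 0% oxygen by 0.68 and 0.77 on the log2 scale, and SIP4 by 4.34. CAT8, the zinc cluster activator that binds the carbon source-responsive elements of most of these genes, had log2 levels of 8.51, 8.64, 8.82 and 8.83 at 0% oxygen and 10.24, 10.18, 10.36 and 9.94 at 0.5% oxygen. They lay between 9.87 and 10.08 with a median of 9.94 at 1.0% oxygen, and were 9.75, 9.81, 9.77 and 9.71 at 2.8% and 9.47, 9.31, 9.15 and 9.60 at 20.9% oxygen. The mean of CAT8 was therefore highest at the smallest oxygen supply and lower at each level above it, and only the arrays at 0.5 and 1.0% overlapped. It was 2.79-fold higher at 0.5% than at 0% oxygen (1.48 ± 0.10, adjusted p = 8.1e-11). It was lower at 20.9% than at 0.5% oxygen (-0.80 ± 0.10, adjusted p = 1.4e-06), lower at 2.8% than at 0.5% oxygen (-0.42 ± 0.10, adjusted p = 0.0072) and lower at 20.9% than at 2.8% oxygen (-0.38 ± 0.10, adjusted p = 0.0027). The last 2 calls did not stand without the 2 directly centrifuged samples (adjusted p = 0.048 for 2.8% against 0.5% and 0.019 for 20.9% against 2.8% oxygen), at nearly the same values. That of 2.8% against 0.5% oxygen was lost with any of 8 single arrays left out, among them replicate 4 at 2.8% (-0.40, adjusted p = 0.016) and replicate 3 at 0.5% oxygen (-0.36, adjusted p = 0.036).

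SIP4 encodes a second zinc cluster activator of the same elements, whose own gene is activated by Cat8. Its log2 levels were 5.19, 4.80, 4.87 and 4.90 at 0% oxygen, 5.93, 5.71, 6.25 and 5.43 at 0.5% oxygen, and between 5.89 and 6.19 with a median of 5.99 at 1.0% oxygen. They were 6.44, 6.52, 6.55 and 6.19 at 2.8% oxygen and 8.60, 8.61, 9.73 and 10.21 at 20.9% oxygen. The arrays at 20.9% lay above all others by more than 2 on the log2 scale. SIP4 was 20.3-fold higher at 20.9% than at 0% oxygen (4.34 ± 0.25, adjusted p = 5.8e-12), and 65.8% of this lay between 20.9% and 2.8% oxygen (7.26-fold, 2.86 ± 0.25, adjusted p = 2.3e-08). That share rests on low signals, since SIP4 was among the dimmest genes of the array at every level below 20.9% oxygen. The difference between 0.5% and 0% oxygen was small (0.89 ± 0.25, adjusted p = 0.0082) and stood close to the threshold. This call was lost with any of 16 single arrays left out, among them replicate 1 at 0% (adjusted p = 0.010) and replicate 3 at 0.5% oxygen (adjusted p = 0.037). It was also lost without the 2 directly centrifuged samples (adjusted p = 0.010). Relative to CAT8 on the same array, SIP4 was higher at 20.9% than at 2.8% oxygen by 3.24 ± 0.41 and higher at 20.9% than at 0% oxygen by 3.66 ± 0.43.

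ADR1 encodes the zinc finger activator of ethanol and fatty acid use, and varied over a narrow range. Its log2 levels were 9.11, 9.31, 9.05 and 9.39 at 0% oxygen, 9.83, 9.63, 9.97 and 9.78 at 0.5% oxygen, and between 9.72 and 10.06 with a median of 9.85 at 1.0% oxygen. They were 10.24, 10.46, 10.34 and 10.07 at 2.8% oxygen and 9.80, 10.10, 9.82 and 10.22 at 20.9% oxygen. The arrays at 0% oxygen lay below all others and those at 2.8% above all arrays at 0.5 and 1.0%. ADR1 was 1.50-fold higher at 0.5% than at 0% oxygen (adjusted p = 1.8e-04), 1.39-fold higher at 2.8% than at 0.5% oxygen (adjusted p = 0.0063) and 1.70-fold higher at 20.9% than at 0% oxygen (0.77 ± 0.11, adjusted p = 3.4e-06). The call at 2.8% against 0.5% oxygen was lost without the 2 directly centrifuged samples (0.48, adjusted p = 0.027) and with any of 6 single arrays left out. The levels at 20.9% were not called different from those at 2.8% (-0.30, adjusted p = 0.027), 1.0% (0.13, adjusted p = 0.27) or 0.5% oxygen (0.18, adjusted p = 0.18).

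Several of these levels were low. At 0% oxygen the mean level of SIP4 stood at percentile 4.1 of all genes on the array, SFC1 at 7.0, FBP1 at 8.2, IDP2 at 12.5 and MLS1 at 12.6, and SIP4 was still at percentile 9.1 at 2.8% oxygen. No detection calls or background levels were used here, and how far low signal affected the size of these changes was not tested. As the arrays were normalised to 1 distribution, values are relative to the other transcripts of a sample, and fewer expressing cells and less RNA per cell cannot be told apart.

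**Figure D3:**
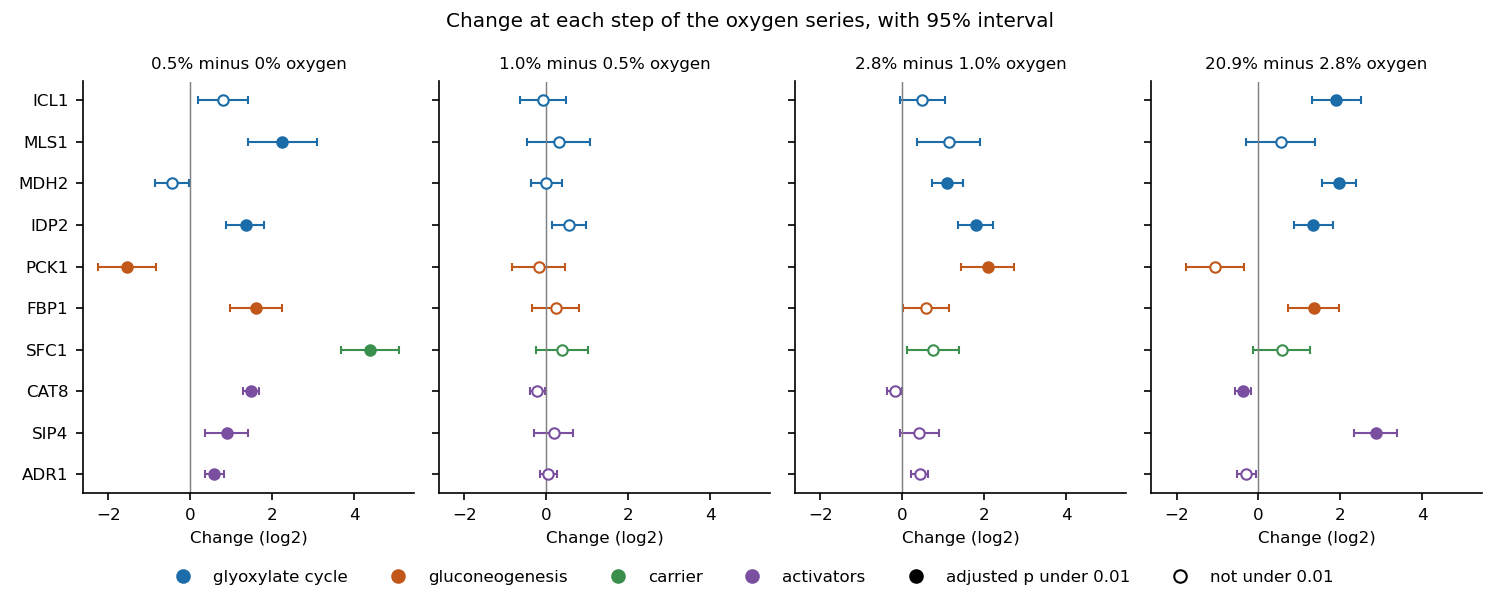
Log2 change (x axis) of each gene at the 4 consecutive steps of the oxygen series, higher minus lower oxygen, with its 95% interval; colours give the role and filled points have a limma adjusted p under 0.01. At 0.5% minus 0% oxygen SFC1 lies at 4.39 and PCK1 at -1.54, at 1.0% minus 0.5% no point is filled, and at 20.9% minus 2.8% SIP4 lies at 2.86.

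Counted over the 10 genes, 9 were higher and 0 lower at 20.9% than at 0% oxygen, with a median log2 change of 3.43. Of all genes, 21.9% were higher and 28.6% lower in this comparison, with a median of -0.074. At 20.9% against 2.8% oxygen, 5 were higher (ICL1, MDH2, IDP2, FBP1 and SIP4) and 1 was lower (CAT8), where 18.6% of all genes were higher and 21.9% lower. At 2.8% against 1.0% oxygen 3 were higher (MDH2, IDP2 and PCK1) and 0 lower, where 0.771% of all genes were higher and 0.936% lower, and with replicate 1 at 0% and replicate 4 at 2.8% oxygen left out the count was 6. At 2.8% against 0.5% oxygen 4 were higher (MDH2, IDP2, PCK1 and ADR1) and 1 was lower (CAT8), with 2.59% of all genes higher and 3.08% lower. Without the 2 directly centrifuged samples, MDH2 and IDP2 alone were called there.

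Between 1.0% and 0.5% oxygen limma called none of the 10 genes, and only 0.110% of all genes were higher and 0.0551% lower. At an unadjusted p under 0.05 the count was 2, IDP2 at 0.55 and CAT8 at -0.23, where 13.0% of all genes were under it. The step between 0.5% and 0% oxygen held 7 higher genes and 1 lower (PCK1), against 13.3 and 13.6% of all genes, with ICL1 and MDH2 not called. At 2.8% against 0% oxygen 8 were higher and 0 lower (12.8 and 13.0% of all genes), at 1.0% against 0% 7 were higher and 1 lower (14.4 and 14.2%), at 20.9% against 0.5% 7 were higher and 1 lower (15.9 and 19.3%) and at 20.9% against 1.0% 8 were higher and 1 lower (19.4 and 23.3%). These comparisons share arrays and are not separate evidence.

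Whether the last interval of the series changed a gene more than the span below it was tested as the difference between the 20.9% minus 2.8% and the 2.8% minus 0% changes. MDH2 had a larger change in the last interval, by 1.31 ± 0.34 (adjusted p = 0.0051). MLS1 (-3.15), IDP2 (-2.35), SFC1 (-4.95), CAT8 (-1.44) and ADR1 (-1.36) had a smaller one, and all 5 were called. Of all genes 12.3% were called with a larger and 12.0% with a smaller change. SIP4 (1.38, adjusted p = 0.017) and ICL1 (0.70, adjusted p = 0.28) were not called, and the call for MDH2 was lost without replicate 4 at 2.8% oxygen (0.82, adjusted p = 0.033). Without the 2 directly centrifuged samples the calls for MDH2 (0.88, adjusted p = 0.074) and MLS1 (-3.24, adjusted p = 0.015) were lost. With 2 samples each at 0.5 and 2.8% oxygen, as the median of 36 choices, they were lost as well (adjusted p = 0.021 for MDH2 and 0.024 for MLS1). FBP1 (-1.06, adjusted p = 0.11) was called without replicate 1 at 0% oxygen (-1.44, adjusted p = 0.0088).

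The isoenzymes of the cycle and of the citric acid cycle were measured on the same arrays, 12 of the 13 listed. At 20.9% against 0% oxygen 5 were higher, 2 lower and 5 not called, with a median log2 change of 0.20, where 21.9% of all genes were higher and 28.6% lower. The higher ones were ACO1 (0.25), MDH3 (0.84), the peroxisomal malate dehydrogenase, and CIT3 (4.18), IDP3 (3.21) and ICL2 (2.67), which encode a mitochondrial citrate and methylcitrate synthase, the peroxisomal NADP isocitrate dehydrogenase and the mitochondrial 2-methylisocitrate lyase. CIT2, the peroxisomal citrate synthase, was lower (-1.89), as was the mitochondrial IDP1 (-0.46), and MDH1, the mitochondrial malate dehydrogenase, gave 0.15 (adjusted p = 0.16). Each pair was compared by the difference between its 2 transcripts on the same array.

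MDH2 was higher relative to MDH1 at 20.9% than at 0% oxygen by 2.46 ± 0.29 and at 20.9% than at 2.8% oxygen by 2.17 ± 0.31. IDP2 was higher relative to IDP1 by 5.49 ± 0.30 and 1.70 ± 0.28 in the same comparisons. MLS1 was higher relative to DAL7, the malate synthase of allantoin use, by 3.98 ± 0.75 at 20.9% against 0% oxygen. Each of these differences, and those of FBP1 with PCK1 and of SIP4 with CAT8, left no overlap between the 4 arrays of either level. Their exact two-sided permutation p was 0.0286, the smallest that 4 against 4 arrays can give, and 0.0381 after Benjamini-Hochberg adjustment over the 12 comparisons made. With 4 arrays against 4 no such p can be under 0.01. The differences overlapped between the levels for ICL1 and ICL2 (0.44 ± 0.47 at 20.9% against 0% oxygen, exact permutation p = 0.4286, adjusted 0.4675) and for MLS1 and DAL7 at 20.9% against 2.8% oxygen (0.91 ± 0.46, exact permutation p = 0.1429, adjusted 0.1714). The pairs were chosen with earlier results of these data known.

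**Figure D4:**
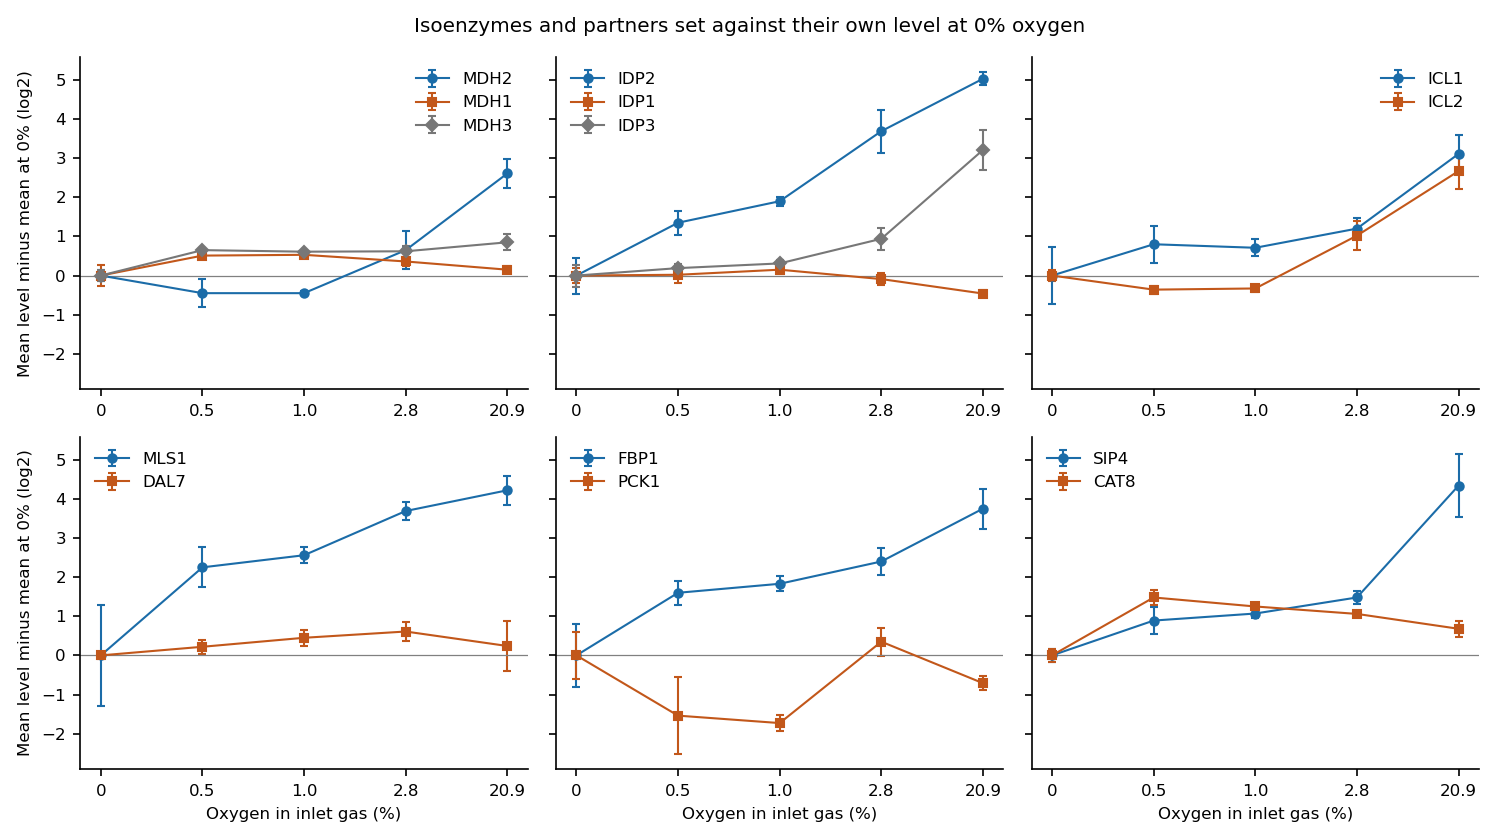
Mean log2 level minus the gene's own mean at 0% oxygen (y axis) by oxygen in the inlet gas (x axis), with the SD of each level as bars; each panel sets 1 of the genes (blue circles) against an isoenzyme or partner (orange squares, grey diamonds). At 20.9% oxygen IDP2 lies at 5.03 and IDP1 at -0.46, MDH2 at 2.62 and MDH1 at 0.15, and ICL1 at 3.11 and ICL2 at 2.67.

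Transcripts for the reactions shared by glycolysis and gluconeogenesis differed little between 20.9% and 0% oxygen. Beside each count of this paragraph stand the shares of all genes in the same comparison, 21.9% higher and 28.6% lower. Of 9 measured genes, 2 were higher at 20.9% than at 0% oxygen, TDH1 (0.83) and ENO1 (0.31), none was lower and the smallest value was -0.11 (TPI1). Of 10 genes for steps opposed to or around gluconeogenesis 3 were higher and 6 lower. PFK1 and PFK2, the subunits of phosphofructokinase that oppose FBP1, were lower (-0.66 and -0.50). PFK27, which makes the activator fructose-2,6-bisphosphate, was lower (-2.23), while PFK26 of the same function was higher (1.01), as was FBP26 (0.74), whose enzyme degrades that compound. PYC1, a pyruvate carboxylase that supplies oxaloacetate from pyruvate, was lower (-1.23), PYC2 was higher (0.35), and CDC19, the main pyruvate kinase, gave -0.02 (adjusted p = 0.74). In the GID and VID genes, through which Fbp1, Mdh2, Icl1 and Pck1 proteins are degraded after glucose is added, 4 of 9 were higher and 1 was lower. VID28 had the largest value (0.78) and VID24, the subunit that recognises the substrates, the smallest (-1.95).

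Most of 17 listed other genes activated by Cat8, Sip4 or Adr1 were also higher with oxygen. The list was chosen with earlier results of these data known. At 20.9% against 0% oxygen 15 were higher, 1 was lower and 1 was not called, with a median log2 change of 2.69. Of all genes, 21.9% were higher and 28.6% lower in this comparison. ADY2, an acetate permease, changed by 6.52 and ADH2, the ethanol-oxidising alcohol dehydrogenase, by 6.39, and without replicate 1 at 0% oxygen by 6.92 and 7.17. ADH5, another alcohol dehydrogenase, was lower (-2.09). At 20.9% against 2.8% oxygen 9 of the 17 were higher and 0 lower (18.6 and 21.9% of all genes). At 2.8% against 1.0% oxygen 5 were higher and 0 lower (0.771 and 0.936% of all genes). On replicate 1 at 0% oxygen ADH2, ADY2 and CTA1 of this list also lay above the band of 95% of all genes and CAT2 lay below it. Among 19 genes of the kinase, the repressors and other regulators, 7 were higher and 5 lower at 20.9% than at 0% oxygen (21.9 and 28.6% of all genes), with a median of 0.13. SIP2, a subunit of the Snf1 complex, had the largest rise (1.25) and HXK2, the hexokinase that takes part in glucose repression, the largest fall (-1.15), while SNF1 itself gave 0.01 (adjusted p = 0.95).

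**Figure D5:**
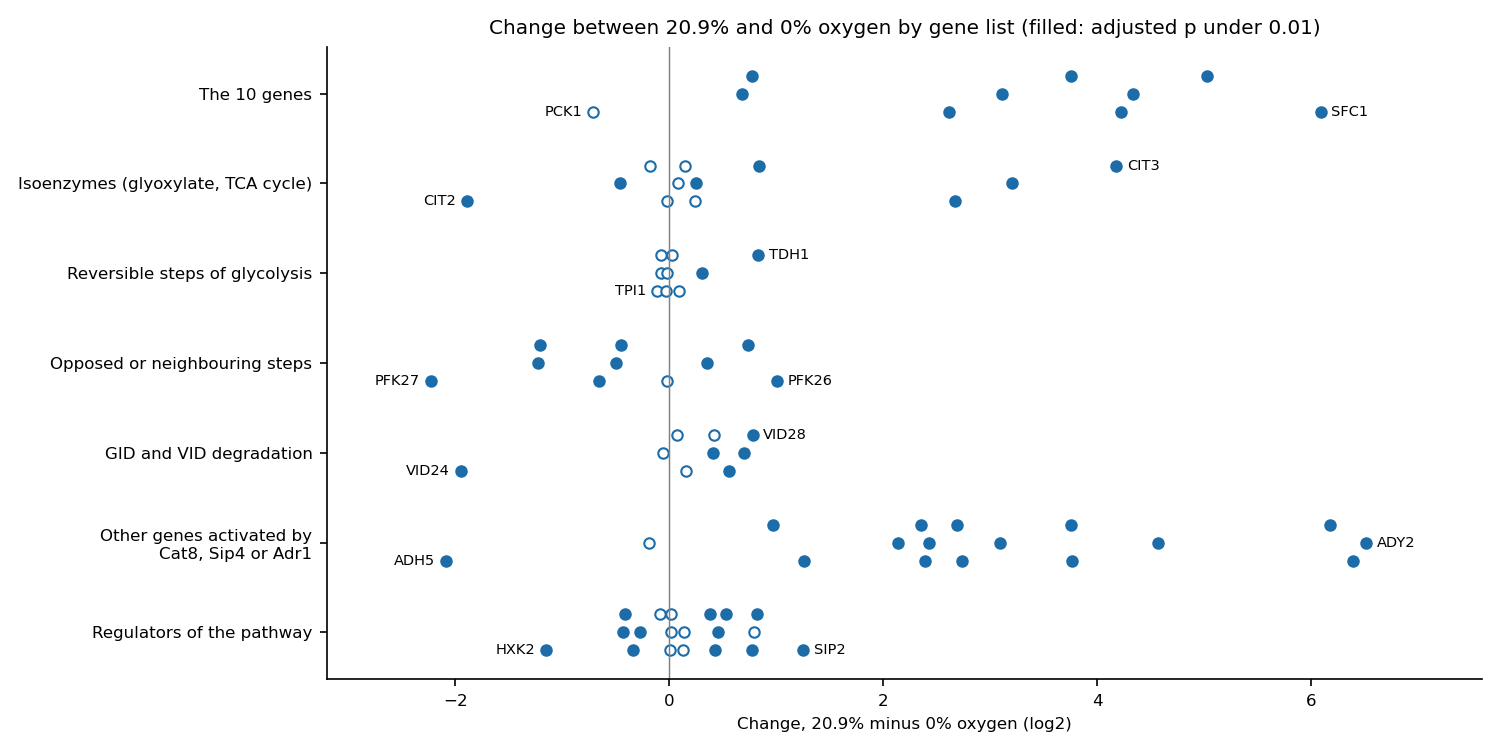
Log2 change at 20.9% minus 0% oxygen (x axis) for the 10 genes and 6 lists of related genes (rows); each point is a gene, filled where the limma adjusted p was under 0.01, and the lowest and highest gene of each row are named. In the row of other genes activated by Cat8, Sip4 or Adr1, 15 of 17 lie above 0 and are filled, and among the reversible steps of glycolysis the highest is TDH1 at 0.83.

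Over the 22 arrays, which share the 5 oxygen levels, each gene was set against the mean of the 9 other scaled profiles. Pearson r was 0.96 for IDP2, 0.95 for FBP1, 0.93 for MLS1, 0.86 for ICL1 and SFC1, 0.85 for SIP4, 0.74 for ADR1 and 0.69 for MDH2. CAT8 (0.22) and PCK1 (-0.04) were far from the others. The genes outside the set with the profile most like the mean of all 10 were JEN1, the lactate and pyruvate permease (0.964), CTA1, the peroxisomal catalase (0.962), and FOX2 and POX1 of peroxisomal fatty acid oxidation (0.961 and 0.954), followed by DSD1, SPG4, PRR2, TES1, ADH2 and PXA1 (0.941 to 0.950). Of these 10, only JEN1 and POX1 were also among the 10 most alike when the 5 level means were used. PCK1 was most like SOK2 (0.802), SUT1 and TAN1, CAT8 most like COR1, LPD1 and AAC1 (0.963 to 0.966), and ADR1 most like SEI1, LSC1 and CSM4 (0.894 to 0.902). ICL1 was most like SIP4 (0.952), MGR1 and ADY2, MLS1 most like SFC1 (0.950), FBP1 and CTA1, and MDH2 most like ICL2 (0.981), ACS1 and ADY2. IDP2 was most like YGR067C (0.973), PXA1 and FDH1, FBP1 most like CTA1 (0.961), SPG4 and LDO16, SFC1 most like SUE1 (0.982), PUT4 and DPL1, and SIP4 most like LPX1, SGA1 (0.971 for both) and RCH1. These values are descriptions, since all points share the oxygen levels.

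Within an oxygen level some of the genes deviated together and others did not. Over 22 arrays the deviations of SFC1 from its level means correlated with those of MLS1 (r = 0.89) and FBP1 (0.87), and those of ICL1 with MLS1 (0.83), whereas those of PCK1 had r = -0.31 with IDP2 and -0.13 with FBP1. For the deviations of CAT8, r with those of the other genes ran from -0.16 (MLS1) to 0.47 (PCK1), and for ADR1 from -0.21 (MLS1) to 0.44 (CAT8). For SIP4 it ran from 0.18 (PCK1) to 0.70 (MDH2). Without replicate 1 at 0% oxygen, over 21 arrays, r was 0.73, 0.81 and 0.71 for the first 3 pairs and -0.24 and 0.01 for PCK1 with IDP2 and with FBP1.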

How the data were processed

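Total RNA was hybridised to GeneChip Yeast Genome 2.0 arrays, 1 per sample. The values deposited by the authors are log2 intensities from Robust Multichip Average (RMA): correction for background, quantile normalisation between arrays, and summary to 1 value per probe set. No further normalisation was applied. The genome build is not given in the sources used here. The authors left out 1 sample at 1.0% oxygen, which is not analysed here. Array medians were 9.036 to 9.099, and the number of arrays and cultivations limits the precision.

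Of 5716 probe sets, 5498 name 1 gene. 1 was kept for each of 5449 genes, first one that matches 1 transcript only and then the brightest, and 12 symbols were updated through RefSeq. A linear model with the 5 levels as groups was fitted with limma 3.58.1 (R 4.3.3, 17 residual degrees of freedom). Adjusted p-values (Benjamini-Hochberg over 5449 genes for each comparison) were called under 0.01, and changes are higher minus lower oxygen. Pairs of transcripts were compared by an exact permutation test (SciPy 1.17.1). The scripts were tested on simulated data. The genes, the lists and the pairs were chosen with earlier results of these data known. Named are the 10 genes, the 3 genes most alike to each and the 10 most alike to their mean, and from the lists the isoenzymes, opposing enzymes and extremes at 20.9% against 0% oxygen; ENO1, ACO1, SNF1 and the genes of single arrays were named after their values were seen. Alternatives were another choice or mean of probe sets, filters, scalings, variance settings, array weights, thresholds, fewer samples, a replicate block and each array left out.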

Additional observations from a re-analysis of the deposited data

Results flagged for a closer look

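Of 50 combinations of gene and oxygen level, 3 had 1 array far from the others by Dixon's test, where chance gives about 1 in 20. ICL1 on replicate 1 at 0% oxygen had a log2 level of 9.65, against 8.08 to 8.33 on the other 3 arrays. MDH2 on replicate 4 at 2.8% oxygen had 9.55, against 10.45 to 10.58. FBP1 on replicate 2 at 1.0% oxygen had 8.47, against 7.95 to 8.12 on the other 5 arrays. Causes were not tested. MLS1 and SFC1 on replicate 1 at 0% oxygen, at 8.89 and 7.57, did not reach the critical value of this test.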

How the results depend on the processing

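Of 70 changes of the 10 genes that were called between pairs of levels or spans, none changed sign. Under every one of the 13 alternatives that gave a value and with each of 22 arrays left out, 53 were called. SIP4 had no value where the dimmest 25% of genes were left out. The last interval had none in the fit of only 2 levels, so these calls were not tested there. Counts of genes called moved by over 1.5 times, or from 0, as follows, and the cause was not tested. At 2.8% against 1.0% oxygen (3 genes) the replicate block gave 1, array weights 7, the fit of only the 2 levels 5, and leaving out both replicate 1 at 0% and replicate 4 at 2.8% oxygen, chosen after seeing the data, 6. At 2.8% against 0.5% oxygen (5 genes) the replicate block gave 3, array weights 9, the 2 levels alone 3, the fit without the directly centrifuged samples 2, and 2 samples each at 0.5 and 2.8% oxygen, as the median of 36 choices, 2. At 1.0% against 0.5% oxygen (0 genes) array weights gave 2. With 1 array left out the counts ran from 3 to 5 at 2.8% against 1.0%, 3 to 7 at 2.8% against 0.5%, 5 to 7 at 20.9% against 2.8%, 7 to 8 at 0.5% against 0%, 7 to 9 at 2.8% against 0%, 8 to 9 at 1.0% against 0%, at 20.9% against 0.5% and at 20.9% against 1.0%, and 5 to 7 for the last interval, with 9 throughout at 20.9% against 0%. The replicate block moved no other count by over 1.5 times, but gave 6 at 20.9% against 1.0% oxygen (9 genes). The fit without the directly centrifuged samples gave 4 at 20.9% against 2.8% oxygen (6 genes) and 4 for the last interval (6 genes). Deviations of samples with the same number at different levels had a median correlation of 0.051 (-0.595 to 0.581, 36 pairs). For different numbers it was -0.007 (-0.599 to 0.639, 156 pairs). These medians cannot show whether some samples with the same number belong together. At 1.0% against 0.5% oxygen, where nothing was called, leaving out an array turned the sign of PCK1 (-0.46 to 0.27), ICL1 (-0.25 to 0.13), MDH2 (-0.16 to 0.11) and ADR1 (-0.01 to 0.10). Precision is limited by the 2 cultivations each at 0.5 and 2.8% oxygen, by up to 4 arrays from 1 cultivation at 1.0%, and for MLS1, IDP2, FBP1, SFC1 and SIP4 by low signal at 0% oxygen.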
